A study of Mus musculus with 4 samples.

Results

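The subject is a protease system of tumour immune cells, the Ctla2 inhibitors, the cysteine cathepsins they resemble or act on, and a pair of cystatins. The 8 genes, Ctla2a, Ctla2b, Ctsl, Ctss, Ctsb, Ctsc, Cst3 and Cstb, were chosen by name with earlier results of these data known, and all 8 were found among the 32285 genes of the matrix. Because these expression values were in view when the genes were chosen, the levels and ratios below are descriptions and no test stands behind them. Single-cell RNA sequencing had been run on live CD45+ cells sorted from melanomas grown in Rag2-/- mice, hosts that make no T or B cells of their own. The tumours came from YUMM1.7 mouse melanoma cells that express ovalbumin. OT-1 T cells, specific for a peptide of ovalbumin, were transferred on day 7, and tumours were taken 72 h later, on day 10, in all 4 groups. NTT is the line naive to targeted therapy, and RTT is the line resistant to it. RTT_ROSA26 is the resistant line with a control guide against the Rosa26 locus, and RTT_PTGS12KO is the resistant line in which Ptgs1 and Ptgs2, the genes of both cyclooxygenases, were knocked out. The edits were in the injected cancer cells, and not in the immune cells sequenced. The study's methods describe inducible Cas9 clones and, for Ptgs2 knockouts of this model, lines grown from single cells, and whether each edited line used here was a single clone is not given in the sources used here.

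There was 1 sample per group, described as 1 tumour per condition in the labels and as pooled tumours in the study's legends, so no difference has a replicate check. Intervals are 95% intervals for counting error only. The samples held 6836 to 10296 cells and 69332486 to 146829369 UMIs (unique molecular identifiers, each marking 1 captured transcript). Median depth was 7292.5 UMIs per cell in NTT and 12219 to 13280 in the others. All 4 samples were pooled and loaded 3 times on a chip, so the spread over loads is technical, any free RNA of a load was shared by all samples, and 98 barcodes occurred in more than 1 load. Cell types carry the authors' 17 names, and a type is used in a sample only where it holds at least 50 cells, which 42 of 67 groups do. The leading genes of most names held markers of that type, among them Apoe and Ms4a7 for TAM_C1q, Gzma and Prf1 for NK_cells and Ctsk and Acp5 for Ctsk_Macro. Infl_Mono was led by interferon-induced genes such as Ifit3 and Rsad2, with 2 monocyte markers. TAM_Spp1, TAM_cycling and Monocyte_3 had none of the listed markers among their leading 10, and TAM_H2Ab1 had 1 cDC1 marker, Cadm1, and none for macrophages. The 5 names TAM_C1q, TAM_cycling, TAM_Spp1, TAM_H2Ab1 and Ctsk_Macro are called macrophages here, Monocyte_1, Infl_Mono and Monocyte_3 are called monocytes, and the unclear name Macro was kept apart.

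Cysteine cathepsins are papain-like proteases of endosomes and lysosomes. They are made as inactive precursors whose propeptide blocks the active site until it is removed. Ctla2a and Ctla2b, first cloned from activated T cells, encode small proteins that look like such a propeptide without the enzyme and that inhibit cathepsin L-like proteases. Cathepsin L and cathepsin S trim the invariant chain from MHC class II molecules, cathepsin B is a general lysosomal protease, and cathepsin C activates granzymes and neutrophil serine proteases. Cystatin C, from Cst3, is a secreted inhibitor of these enzymes, and cystatin B, from Cstb, is a cytosolic one.

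Both Ctla2 genes lie on the minus strand of mouse chromosome 13 (GRCm38, GENCODE M21 annotation), Ctla2a at chr13:60934155-60936625 and Ctla2b at chr13:60895350-60897447, with 36707 bases between them. Ctsl lies on the same strand at chr13:64359337-64370890, 3422711 bases from Ctla2a. The other genes are on different chromosomes, and all 8 are annotated as protein coding. The promoters of the Ctla2 genes are shown because both genes were lower in macrophages of NTT than of RTT and of RTT_PTGS12KO than of RTT_ROSA26. Each runs from 250 bases before to 50 bases after a RefSeq start (GRCm38.p6, minus strand, printed 5′ to 3′), at chr13:60936576-60936875 for Ctla2a and chr13:60897398-60897697 for Ctla2b, and capitals mark TGACG, the core of a cyclic AMP response element.
Ctla2a: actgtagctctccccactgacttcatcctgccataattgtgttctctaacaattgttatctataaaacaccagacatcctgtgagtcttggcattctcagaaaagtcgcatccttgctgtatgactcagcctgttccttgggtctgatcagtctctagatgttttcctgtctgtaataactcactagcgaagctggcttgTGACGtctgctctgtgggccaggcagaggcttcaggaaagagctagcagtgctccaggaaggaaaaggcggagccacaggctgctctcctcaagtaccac
Ctla2b: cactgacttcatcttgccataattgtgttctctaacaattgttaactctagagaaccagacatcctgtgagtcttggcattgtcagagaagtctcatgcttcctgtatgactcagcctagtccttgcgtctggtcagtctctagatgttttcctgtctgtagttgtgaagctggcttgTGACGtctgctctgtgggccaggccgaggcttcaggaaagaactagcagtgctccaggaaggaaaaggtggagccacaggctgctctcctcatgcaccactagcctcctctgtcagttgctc
The promoters were identical at 255 of 278 aligned bases (91.7%). TGACG begins 50 bases before the start in Ctla2a and 72 bases before it in Ctla2b. Searched on both strands, these letters occur in 20.8% of 32851 mouse promoters of the same length, and among the 6 members with a RefSeq promoter only the Ctla2 genes held them. CACGTG, an E-box, was found in Ctsl and in 7.15% of all promoters. GAAANNGAA was found in Ctss and in 8.56% of all promoters, and TTCNNNGAA in Ctla2a and Ctsc and in 8.30%. A match describes the letters of the window and not binding.

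The close likeness of Ctla2a and Ctla2b matters for counting. Their main transcripts were identical at 329 of 342 aligned coding bases (96.2%), and Ctla2a and Ctsl at 63.1% of aligned coding bases. The libraries tag the 3′ end, and there the relatives part. The last 500 bases of both transcripts were identical at 267 of 450 aligned positions (59.3%), and none of the 94 stretches of 50 bases that Ctla2a shares exactly with Ctla2b lies in its last 500 bases. Predicted genes on the same strand overlap both (Gm49391 and Gm49393) or Ctla2b alone (Gm49392), so how reads that fit several of these genes were counted is uncertain. Fdft1 overlaps Ctsb on the opposite strand, and an antisense gene overlaps Ctsl.

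Levels are given as CPM, the UMIs of a gene per 1000000 UMIs of the cells summed. Over all CD45+ cells, NTT had 169 CPM of Ctla2a, RTT 172, RTT_ROSA26 208 and RTT_PTGS12KO 66.1. For Ctla2b, NTT had 56.2 CPM, RTT 221, RTT_ROSA26 218 and RTT_PTGS12KO 68.8. The relatives thus differed in how NTT compared with RTT, with a log2 ratio of -0.03 (-0.06 to 0.01) for Ctla2a and -1.98 (-2.03 to -1.93) for Ctla2b. In such sums, fewer cells of a type and less RNA per cell cannot be told apart, so the cells behind them come next.

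In NTT, 88.3% of Ctla2a UMIs came from NK_cells, which were 8.58% of its cells, and 9.10% from T_CD8. In RTT, 84.9% came from macrophages, which were 6734 of its 7970 cells, with 67.1% from TAM_C1q alone and 12.4% from 13 mast cells. In RTT_ROSA26, macrophages, 5993 of 6836 cells, held 87.5%, divided between TAM_cycling with 43.9% and TAM_C1q with 41.9%. In both, the Ctla2a level of macrophages was near that of all CD45+ cells (175 against 172 CPM, and 200.9 against 208). In RTT_PTGS12KO, NK_cells were again the main source with 67.4% from 2.97% of cells, while macrophages, 50.6% of cells, gave 21.03%. The equal pooled levels of Ctla2a in NTT and RTT therefore rested on different cells. Ctla2b was more of a macrophage transcript. Macrophages gave 96.0% of its UMIs in RTT, 96.2% in RTT_ROSA26 and 76.8% in RTT_PTGS12KO, against 8.40% in NTT, where NK_cells gave 51.2% and monocytes 33.3%.

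**Figure D1:**
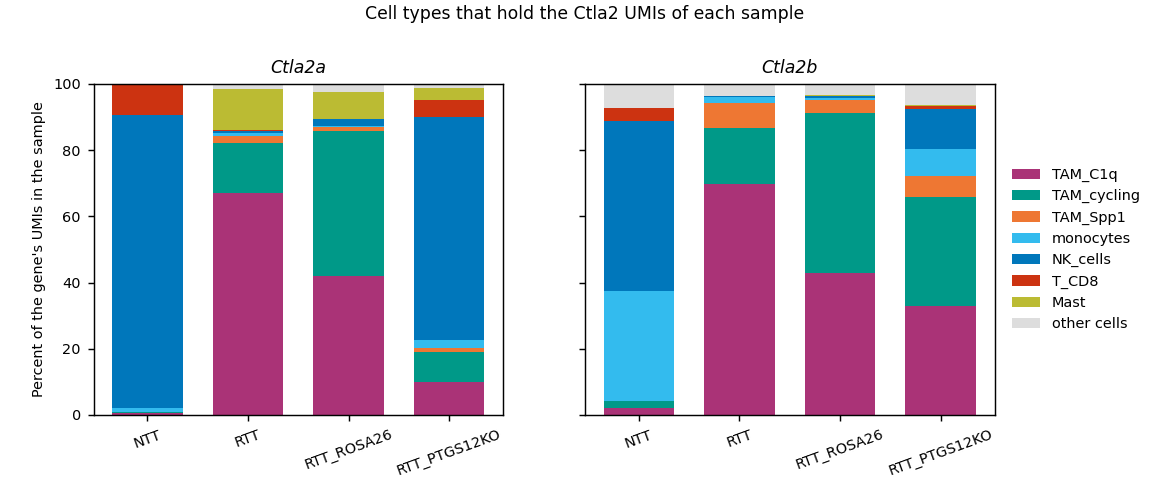
Percent of all Ctla2a UMIs (left) and Ctla2b UMIs (right) of each sample that came from the named cell types, as stacked bars from 0 to 100%. NK_cells held 88.3% of Ctla2a UMIs in NTT and 67.4% in RTT_PTGS12KO, whereas TAM_C1q and TAM_cycling held most in RTT and RTT_ROSA26.

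Lymphocytes carried the highest Ctla2a level among cell types with at least 50 cells. NK_cells reached 1449 CPM (1421 to 1477) in NTT and 1239 (1209 to 1269) in RTT_PTGS12KO, and T_CD8 reached 684 (644 to 727) in NTT. The range over all 42 groups ran from 0.783 CPM in Macro of RTT_PTGS12KO, where 1 UMI was counted, to that of NK_cells in NTT, with a median of 11.5. Among myeloid cells, Ctla2a was highest in TAM_C1q (272 CPM in RTT and 277 in RTT_ROSA26), followed by TAM_cycling (166 and 236). It was low in TAM_Spp1 (18.7 and 21.1), in Ctsk_Macro (9.90 in RTT_ROSA26) and in cDC2 (5.17 and 2.55). TAM_C1q of RTT and RTT_ROSA26 were neighbours whose intervals overlap, and so were TAM_Spp1 of both samples.

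Ctla2b ranked the cells differently. It was highest in TAM_C1q of RTT at 363 CPM (358 to 368), then in TAM_C1q of RTT_ROSA26 at 299 (293 to 305). NK_cells of NTT at 279 (267 to 291) and TAM_cycling of RTT_ROSA26 at 274 (269 to 279) followed with overlapping intervals. The lowest value was 4.56 CPM in Myofibrobl of RTT, and the median over the 42 groups was 58.0. T_CD8 of NTT held 103 CPM (87.2 to 120).

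**Figure D2:**
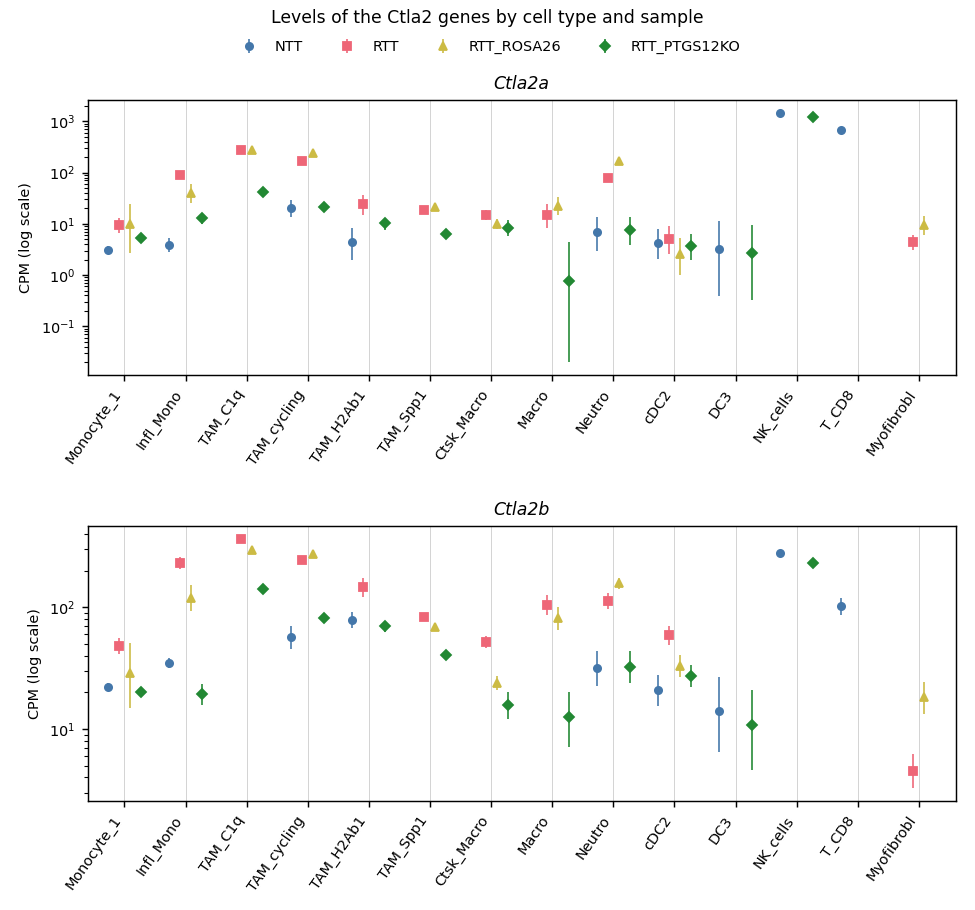
Ctla2a (top) and Ctla2b (bottom) in CPM on a log axis by cell type and sample, with exact Poisson 95% intervals as bars and groups under 50 cells left out. NK_cells top the Ctla2a panel at 1449 and 1239 CPM, and in TAM_C1q and TAM_cycling the RTT_PTGS12KO points lie below RTT and RTT_ROSA26 for both genes.

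Set as a share of the UMIs of both relatives, Ctla2a was high in the lymphocytes and lower in the macrophages. It made up 83.9% (83.2% to 84.5%) in NK_cells of NTT, 84.3% (83.5% to 85.1%) in NK_cells of RTT_PTGS12KO and 86.97% (84.96% to 88.8%) in T_CD8 of NTT. In TAM_C1q, RTT had 42.9% (42.3% to 43.4%), RTT_ROSA26 had 48.1% (47.5% to 48.8%) and RTT_PTGS12KO had 22.5% (21.3% to 23.8%). In TAM_cycling, NTT had 26.4% (18.4% to 35.6%), RTT 40.6%, RTT_ROSA26 46.3% and RTT_PTGS12KO 20.96% (19.7% to 22.2%). The share was alike in NK_cells of both samples, and in TAM_C1q and TAM_cycling it was lower in RTT_PTGS12KO than in either resistant sample that keeps Ptgs1 and Ptgs2. TAM_Spp1 had 18.4% in RTT, a somewhat higher 23.4% in RTT_ROSA26, and 13.4% at the knockout. Other types went the other way, with 22.3% in RTT, 29.2% in RTT_ROSA26 and then 34.4% (24.9% to 44.98%) at the knockout in Ctsk_Macro, and 27.8% in RTT against 39.8% at the knockout in Infl_Mono.

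**Figure D3:**
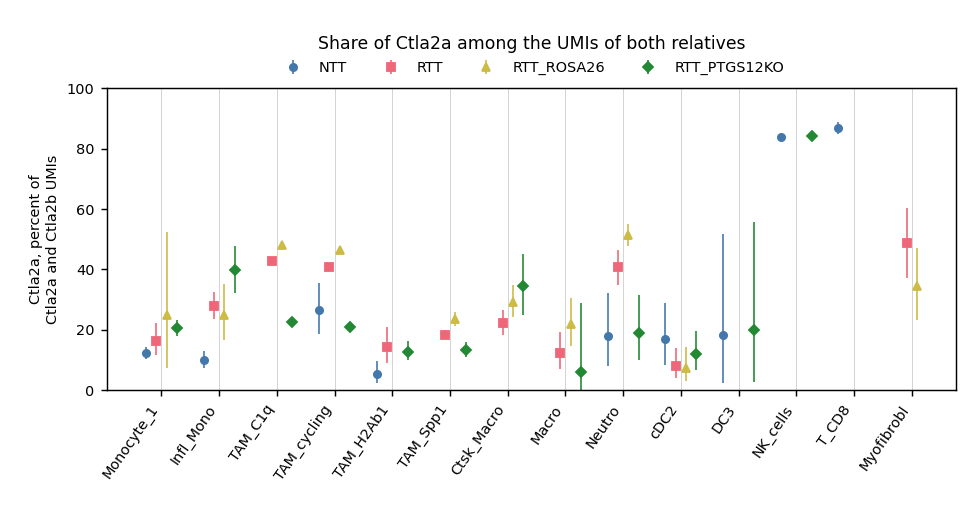
Ctla2a as percent of the summed Ctla2a and Ctla2b UMIs by cell type and sample, with Clopper-Pearson 95% intervals. NK_cells and T_CD8 lie between 83.9% and 86.97%, and TAM_C1q of RTT_PTGS12KO lies at 22.5% against 42.9% and 48.1% in RTT and RTT_ROSA26.

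The same order was seen in the share of cells with a UMI after every cell was thinned to 3000 UMIs. Among TAM_C1q cells, RTT had 34.3% with Ctla2a (32.7% to 35.9%), RTT_ROSA26 had 35.8% (33.8% to 37.8%) and RTT_PTGS12KO had 8.12% (6.81% to 9.59%). Unthinned, the shares were 56.8%, 58.8% and 21.3%, at median depths of 13182.5, 13586 and 14062.5 UMIs. In cDC2, which had little of this gene, thinned shares were 0.727% to 1.74% over the 4 samples (unthinned 2.43% to 4.60%, median depths 7236 to 11325 UMIs). The TAM_C1q shares lay above those of cDC2 in the same sample, with intervals that did not overlap, at the knockout as well. In TAM_Spp1 the thinned shares were 3.66% for RTT (2.89% to 4.56%), 3.30% for RTT_ROSA26 (2.45% to 4.34%) and 1.66% for the knockout (1.03% to 2.53%), and each interval overlaps that of cDC2 in the same sample. Neutro varied by sample, with a thinned share of 0% of 106 cells for NTT (up to 3.42%), 11.9% for RTT (7.08% to 18.4%), 15.4% for RTT_ROSA26 (9.90% to 22.4%) and 4.20% for RTT_PTGS12KO (1.38% to 9.53%). NK_cells stood far above these levels, with 84.8% in NTT and 87.04% in RTT_PTGS12KO.

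Cells with Ctla2a more often held Ctla2b as well. Among thinned TAM_C1q cells of RTT, 71.7% with Ctla2a and 43.2% without it held a Ctla2b UMI. The shares were 66.1% and 36.9% in RTT_ROSA26, and 48.4% and 25.5% in RTT_PTGS12KO. NK_cells of NTT gave 55.3% and 35.0%. These are shares of cells within 1 library each and describe those libraries only.

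Whether loss of Ptgs1 and Ptgs2 in the cancer cells went with a different protease balance in the immune cells was addressed by RTT_PTGS12KO against RTT_ROSA26. In macrophages summed over types, both inhibitors of the Ctla2 type were lower in the knockout tumour, cathepsins differed less and in both directions, and the cystatins hardly differed. Ctla2a stood at 200.9 CPM (198 to 204) in RTT_ROSA26 and 22.7 (21.7 to 23.7) in RTT_PTGS12KO, a log2 ratio of -3.15 (-3.21 to -3.08). By load, the values were 199 to 202 CPM and 20.5 to 24.4 CPM, so the loads of the samples did not overlap. Ctla2b stood at 233 CPM and 86.3 CPM, a log2 ratio of -1.43 (-1.47 to -1.39).

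Of the 8 members, 2 were at least 2-fold lower (Ctla2a and Ctla2b) and none at least 2-fold higher, where 0.974% of 7086 genes with at least 10 CPM were that much lower and 2.37% that much higher. Ctla2a had the second lowest ratio of these 7086 genes, at place 2, and Ctla2b lay at place 15. The median over all genes was -0.09, and over the 8 members -0.35. As the Ctla2 genes were chosen with such ratios known, these places carry no weight as evidence. Macrophage marker genes moved along with them. The 8 listed markers summed to 26379 CPM in macrophages of RTT_ROSA26 and 16358 in RTT_PTGS12KO, with Apoe at 15233 and 7111, and their part in the result was not tested. In the same order, osteoclast-like markers summed to 2935 and 1501 CPM, monocyte markers to 751 and 1015, cDC1 markers to 212 and 489 and NK markers to 8.65 and 32.5, and their part was not tested either.

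Within macrophage types the size of the difference varied. In TAM_cycling, Ctla2a was at 236 CPM in RTT_ROSA26 and 21.5 in RTT_PTGS12KO, a log2 ratio of -3.46 (-3.56 to -3.36). In TAM_C1q it was at 277 and 41.1 CPM, -2.76 (-2.85 to -2.66), and in TAM_Spp1 at 21.1 and 6.29 CPM, -1.74 (-2.09 to -1.41). Ctsk_Macro, whose level was already low, gave 9.90 and 8.27 CPM, -0.26 with an interval from -0.89 to 0.34 that spans 0. Ctla2b followed with -1.76 in TAM_cycling (274 against 81.1 CPM), -1.08 in TAM_C1q (299 against 141), -0.76 in TAM_Spp1 (69.0 against 40.7) and -0.61 in Ctsk_Macro (24.0 against 15.8). Both Ctla2 genes were thus at least 2-fold lower in TAM_cycling, where 1.57% of genes were, and in TAM_C1q, where 0.66% were. Macrophage markers summed to 26223 and 14074 CPM in TAM_cycling and to 36367 and 23246 in TAM_C1q, cDC1 markers to 224 and 561 and to 235 and 393, and NK markers to 10.3 and 43.8 and to 7.10 and 13.1, and their part in the result was not tested. In TAM_Spp1, where few cells held a Ctla2a UMI, only Ctla2a passed that size, against 0.793% of genes, and in Ctsk_Macro only Ctsl did, against 0.882%.

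Holding the mix of macrophage types fixed in this pair left the ratio nearly as large. With the 4 matched types weighted by their UMI shares in RTT_ROSA26, the log2 ratio of Ctla2a was -3.005 against -3.09 as observed in the same cells. With levels held at those of RTT_ROSA26 and only the shares exchanged, it was -0.03. Over all 9 matched types of CD45+ cells the observed value of -3.48 became -3.01 with shares held and -0.54 with levels held. For Ctla2b the 3 values were -1.82, -1.37 and -0.45.

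Monocytes showed the same direction at lower levels. Ctla2a was at 27.9 CPM (18.6 to 40.4, from 28 UMIs) in RTT_ROSA26 and 6.15 (5.42 to 6.95) in RTT_PTGS12KO, a log2 ratio of -2.18 (-2.75 to -1.57). Ctla2b was at 80.8 and 20.0 CPM, -2.01 (-2.34 to -1.66). The RTT_ROSA26 value of Ctla2b came from 20 of 144 cells and ran from 26.0 to 118 CPM over loads, and after thinning 9.42% (5.11% to 15.6%) of RTT_ROSA26 monocytes and 4.84% (4.19% to 5.55%) of knockout monocytes held a UMI, with intervals that overlap (unthinned 13.9% and 14.3%, at median depths of 5934 and 9102 UMIs). These were the 2 members at least 2-fold lower, against 2.15% of genes in monocytes. In Monocyte_1 alone, with 4 Ctla2a UMIs in RTT_ROSA26, the ratio of -0.89 had an interval from -2.27 to 1.00. Infl_Mono gave -1.65 for Ctla2a and -2.63 for Ctla2b. Summed macrophage markers were at 10726 CPM in RTT_ROSA26 and 3538 in RTT_PTGS12KO in Infl_Mono, and at 9373 and 6429 CPM in all monocytes, and their part in the result was not tested.

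Neutro gave one of the lowest ratios, with Ctla2a at 166 CPM in RTT_ROSA26 and 7.65 in RTT_PTGS12KO (-4.44, from -5.46 to -3.59). Summed macrophage markers in Neutro were at 19375 CPM in RTT_ROSA26 and 7429 in RTT_PTGS12KO, and their part in the result was not tested. In Macro the ratio was -4.85 (-10.21 to -2.24) from 25 UMIs against 1. In cDC2, at 2.55 and 3.72 CPM, the ratio of 0.54 had an interval from -0.89 to 2.11.

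Ctsl, the gene of the cathepsin that the Ctla2 proteins are best known to inhibit, was lower in RTT_PTGS12KO in all 9 cell types compared. In macrophages it was at 1728 CPM in RTT_ROSA26 and 1133 in RTT_PTGS12KO, a log2 ratio of -0.61 (-0.62 to -0.60). The ratio was largest in size in Macro (-1.69) and in Ctsk_Macro (1173 against 447 CPM, -1.39), and smallest in TAM_C1q (2093 against 1569 CPM, -0.42). Ctsb, at 2347 and 1636 CPM in macrophages, gave -0.52 (-0.53 to -0.51). By type Ctsb ran from -0.93 in Neutro and -0.84 in TAM_cycling to 0.27 in Monocyte_1, so its direction differed among cells.

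Ctss and Ctsc went the other way. Ctss was at 1894 CPM in macrophages of RTT_ROSA26 and 2319 in RTT_PTGS12KO, 0.29 (0.28 to 0.30). In Ctsk_Macro, the osteoclast-like cells, it was at 402 and 1142 CPM, 1.50 (1.44 to 1.57), the 1 cell type where this invariant chain protease passed 2-fold, as 4.67% of genes did there. RTT had 750 CPM there, so RTT_ROSA26 was the lower of the control tumours (-0.90 against RTT). Ctsc was at 1607 and 2223 CPM in macrophages, 0.47 (0.46 to 0.48), and was higher in RTT_PTGS12KO in all 9 types, from 0.18 in TAM_C1q to 0.91 in Ctsk_Macro.

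The cystatins were nearly level in the sum over macrophage types. Cst3 was at 1922 and 1921 CPM, a log2 ratio of -0.00 (-0.01 to 0.01), and Cstb at 967 and 849 CPM, -0.19 (-0.20 to -0.17). Single cell types differed in Cst3. In Ctsk_Macro, its mean after thinning was 10.7 UMIs per cell in RTT_ROSA26 and 17.1 in RTT_PTGS12KO. In cDC2, Cst3 was at 5864 CPM in RTT_ROSA26 and 14714 in RTT_PTGS12KO, 1.33 (1.30 to 1.35). The other samples had 15883 CPM in NTT and 9939 in RTT, so RTT_ROSA26 was the lowest of the 4.

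**Figure D4:**
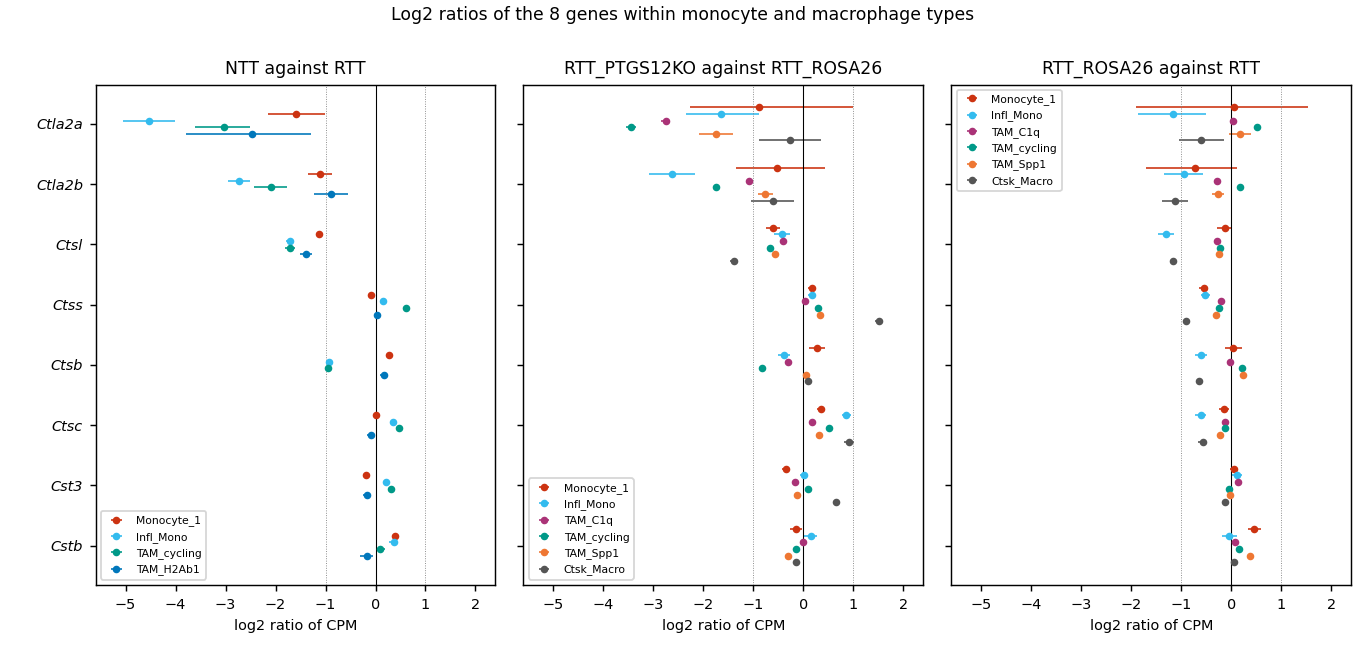
Log2 ratios of CPM of the 8 genes within monocyte and macrophage types for 3 comparisons, with exact conditional 95% intervals for counting error as bars and dotted lines at a 2-fold difference. Ctla2a, Ctla2b and Ctsl lie left of 0 in every type of the NTT panel and of the RTT_PTGS12KO panel, although in the latter the intervals of both Ctla2 genes in Monocyte_1 and of Ctla2a in Ctsk_Macro span 0, while RTT_ROSA26 against RTT has values on both sides.

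How the naive and resistant tumours differed was addressed by NTT against RTT. NTT held only 308 macrophages against 6734, and 192 of them were TAM_H2Ab1, so TAM_cycling, with 79 and 873 cells, comes first. There Ctla2a was at 20.4 CPM (13.6 to 29.2) in NTT and 166 (161 to 172) in RTT, a log2 ratio of -3.03 (-3.61 to -2.51). Ctla2b was at 56.8 and 243 CPM, -2.10 (-2.43 to -1.78), and Ctsl at 510 and 1664 CPM, -1.71 (-1.82 to -1.60). These were the 3 members at least 2-fold lower in TAM_cycling, against 4.85% of genes. Ctsb gave -0.95, Ctss 0.60, Ctsc 0.47, Cst3 0.31 and Cstb 0.10. Of the 29 Ctla2a UMIs of NTT in TAM_cycling, 24 came from 5 cells. The types shared a name and not their marker levels, as macrophage markers summed to 11673 CPM in NTT and 28010 in RTT. In the same order, monocyte markers summed to 2690.4 and 937 CPM and NK markers to 182 and 20.3 CPM. Markers of cDC1 summed to 639 and 242 CPM and those of CCR7+ DCs to 616 and 150 CPM. The part of all these markers in the result was not tested.

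In TAM_H2Ab1, Ctla2a was at 4.37 CPM (9 UMIs) in NTT and 24.3 (21 UMIs) in RTT, -2.47 (-3.78 to -1.29), and Ctsl at 530 and 1388 CPM, -1.39. These were the 2 members at least 2-fold lower there, where 3.27% of genes were. Ctla2b gave -0.89 (-1.23 to -0.54), and the other 5 members lay between -0.18 and 0.17.

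Over all macrophages, Ctla2a was at 24.6 CPM (20.0 to 29.9) in NTT and 175 (172 to 177) in RTT, a log2 ratio of -2.83 (-3.13 to -2.54). Ctla2b was at 80.5 and 253 CPM, -1.66 (-1.82 to -1.50), and Ctsl at 682 and 2360 CPM, -1.79 (-1.85 to -1.74). In all, 3 of 8 members were at least 2-fold lower and none higher, where 3.54% of 6997 genes were lower and 5.35% higher by that size. The NTT value of Ctla2a rested on few cells. Its 100 UMIs came from 26 of 308 cells, 64 of them from 5 cells whose mean depth was 22826.4 UMIs against a median of 11598, and 62 of them from TAM_C1q, of which NTT had 12 cells. Without TAM_H2Ab1 the log2 ratio was -1.96, without the 5% of cells with the most UMIs it was -5.19, and with cells assigned by their marker UMIs it was -4.53, so the direction held and the size was not fixed. Without load 1 it was -2.51 and without load 3 -3.21. Holding the mix of types fixed moved this ratio more than that of the knockout pair. Over both matched macrophage types, TAM_cycling and TAM_H2Ab1, the Ctla2a ratio of -3.87 became -3.03 with shares held at those of RTT and -0.96 with levels held, and that of Ctsb went from -0.17 to -0.87 with shares held. Over the 6 matched types of CD45+ cells, Ctla2a went from -4.97 to -3.02 with shares held and -1.95 with levels held. For Ctla2b, assignment by marker UMIs gave -2.62. Markers differed as well. In NTT and RTT macrophages, macrophage markers summed to 17263 and 33813 CPM. Of these, Apoe (6224 and 22273 CPM), Mrc1, Ms4a7 and Trem2 were lower in NTT. C1qa (2864 and 2600 CPM), C1qb, C1qc and Adgre1 were level or higher. Monocyte markers summed to 1929 and 1185 CPM (4 of 8 higher in NTT, such as Plac8 at 969.7 and 47.8, and 4 lower, such as F13a1 at 134 and 834). NK markers summed to 132 and 12.4 CPM, with Klrk1 alone at 98.4 and 4.83. Osteoclast-like markers summed to 999 and 2372 CPM and cDC1 markers to 676 and 226. The part of all these markers in the result was not tested.

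Ctss, at 3892 CPM in NTT macrophages and 2408 in RTT, gave 0.69, and Ctsc, at 2679 and 1834 CPM, gave 0.55. With macrophage types weighted equally, Ctss gave 0.24. In monocytes, in which NTT is rich, Ctss was level at 3917 and 3991 CPM (-0.03). Ctsb at 1872 and 2305 CPM, Cst3 at 2130 and 1896 CPM and Cstb at 797 and 916 CPM gave -0.30, 0.17 and -0.20 in macrophages.

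Monocytes of the same libraries, 6619 cells in NTT against 522 in RTT, showed the main pattern as well. Ctla2a was at 3.28 CPM (2.80 to 3.81) in NTT and 30.2 (25.5 to 35.4) in RTT, -3.20 (-3.53 to -2.87). The RTT value came from 148 UMIs in 43 cells, with up to 24 UMIs in 1 cell, and ran from 22.7 to 39.8 CPM over loads. Infl_Mono, with 138 cells in RTT, held 114 of these UMIs. Ctla2b was at 25.2 and 95.8 CPM, -1.93, and Ctsl at 531 and 1282 CPM, -1.27. These were the 3 members at least 2-fold lower, against 1.48% of genes. Within Infl_Mono the Ctla2a ratio was -4.52 (3.89 against 89.5 CPM) and within Monocyte_1 it was -1.59 (3.10 against 9.37 CPM). Macrophage markers summed to 5383 CPM in all NTT monocytes and 15318 in those of RTT, monocyte markers to 7818 and 3768 CPM, and macrophage markers in Infl_Mono alone to 4817 and 25365 CPM, and their part in the result was not tested.

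RTT_ROSA26 against RTT compared resistant tumours that both keep Ptgs1 and Ptgs2, 1 library each. The lines can differ by more than the control guide. In macrophages, Ctla2a at 200.9 and 175 CPM gave 0.20 (0.17 to 0.23), Ctla2b at 233 and 253 CPM gave -0.12, Ctsl at 1728 and 2360 CPM gave -0.45 and Ctss at 1894 and 2408 CPM gave -0.35. None of the 8 members was at least 2-fold lower or higher, where 0.723% of 7058 genes were lower and 0.581% higher. None was at least 2-fold lower in monocytes either, against 1.85% of genes, though Ctsl gave -0.68 there (802 against 1282 CPM). For Ctsl in macrophages, -0.45 here stands beside -0.61 for RTT_PTGS12KO against RTT_ROSA26, and for Ctla2a 0.20 stands beside -3.15. With TMM factors the Ctsl values were -0.55 and -0.51, and in monocytes -0.68 and -0.24, so which of the differences in Ctsl was larger depended on the scaling and the cells. These comparisons share libraries, RTT_ROSA26 in one pair and RTT in the other, so they are not independent. Single cell types differed more. In Ctsk_Macro, 2 members were at least 2-fold lower, where 2.2% of genes were, with Ctsl at 1173 CPM in RTT_ROSA26 and 2616 in RTT (-1.16) and Ctla2b at 24.0 and 52.3 CPM (-1.13). In Infl_Mono, Ctla2a (23 against 114 UMIs, -1.16) and Ctsl (614 against 1517 CPM, -1.31) were that much lower, where 6.28% of genes were. Macrophage markers in Infl_Mono summed to 10726 CPM in RTT_ROSA26 and 25365 in RTT. Monocyte markers summed to 9960 and 6480 CPM in the same order, and the part of both in the result was not tested. In cDC2, Ctla2a gave -1.02 from 7 against 11 UMIs, with an interval from -2.62 to 0.48. Ctla2a was at least 2-fold higher in Neutro (166 against 77.7 CPM, 1.10), where 5.29% of genes were. Ctla2b was that much higher in Myofibrobl (2.00), where 1.52% of genes were, and Ctla2a gave 1.14 there at a mean under 10 CPM. In Neutro, neutrophil markers summed to 36501 CPM in RTT_ROSA26 and 56436 in RTT. Monocyte markers were at 1897 and 3426 CPM and macrophage markers at 19375 and 18426 in the same order, and their part in the result was not tested.

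Across cell types the cathepsins and cystatins each had their own pattern. Ctsl was highest in Myofibrobl, 5218 CPM in RTT and 5575 in RTT_ROSA26, and lowest in T_CD8 of NTT at 71.1. In RTT, Myofibrobl gave 15.9% of Ctsl UMIs from 3.12% of cells. Ctss was highest in TAM_H2Ab1 of NTT at 4707 CPM and lowest in Myofibrobl of RTT at 107. Ctsc was highest in Monocyte_1 of RTT_PTGS12KO at 3366 CPM and lowest in Myofibrobl of RTT at 79.1. Both were low in Ctsk_Macro, where Ctsk itself reached 13932 to 14770 CPM.

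Ctsb was highest in Macro of RTT_ROSA26 at 3195 CPM and in TAM_C1q of RTT at 3183, and lowest in T_CD8 of NTT at 134. Cst3 was found throughout the myeloid cells. In RTT, macrophages gave 79.4% of its UMIs and were 6734 of 7970 cells. Its level peaked in dendritic cells, with 25819 CPM in DC3 of NTT and 23100 in DC3 of RTT_PTGS12KO against 335 in Myofibrobl of RTT_ROSA26. Cstb was highest in Ctsk_Macro, from 1580 to 1748 CPM, and lowest in T_CD8 of NTT at 161. NK_cells, which had the highest Ctla2a level among types with at least 50 cells, were poor in Ctsl, at 104 CPM in NTT and 108 in RTT_PTGS12KO, and in Ctsb, at 183 and 199 CPM. Over all samples, NK_cells held Ctss at 408 CPM and Ctsc at 384 CPM.

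**Figure D5:**
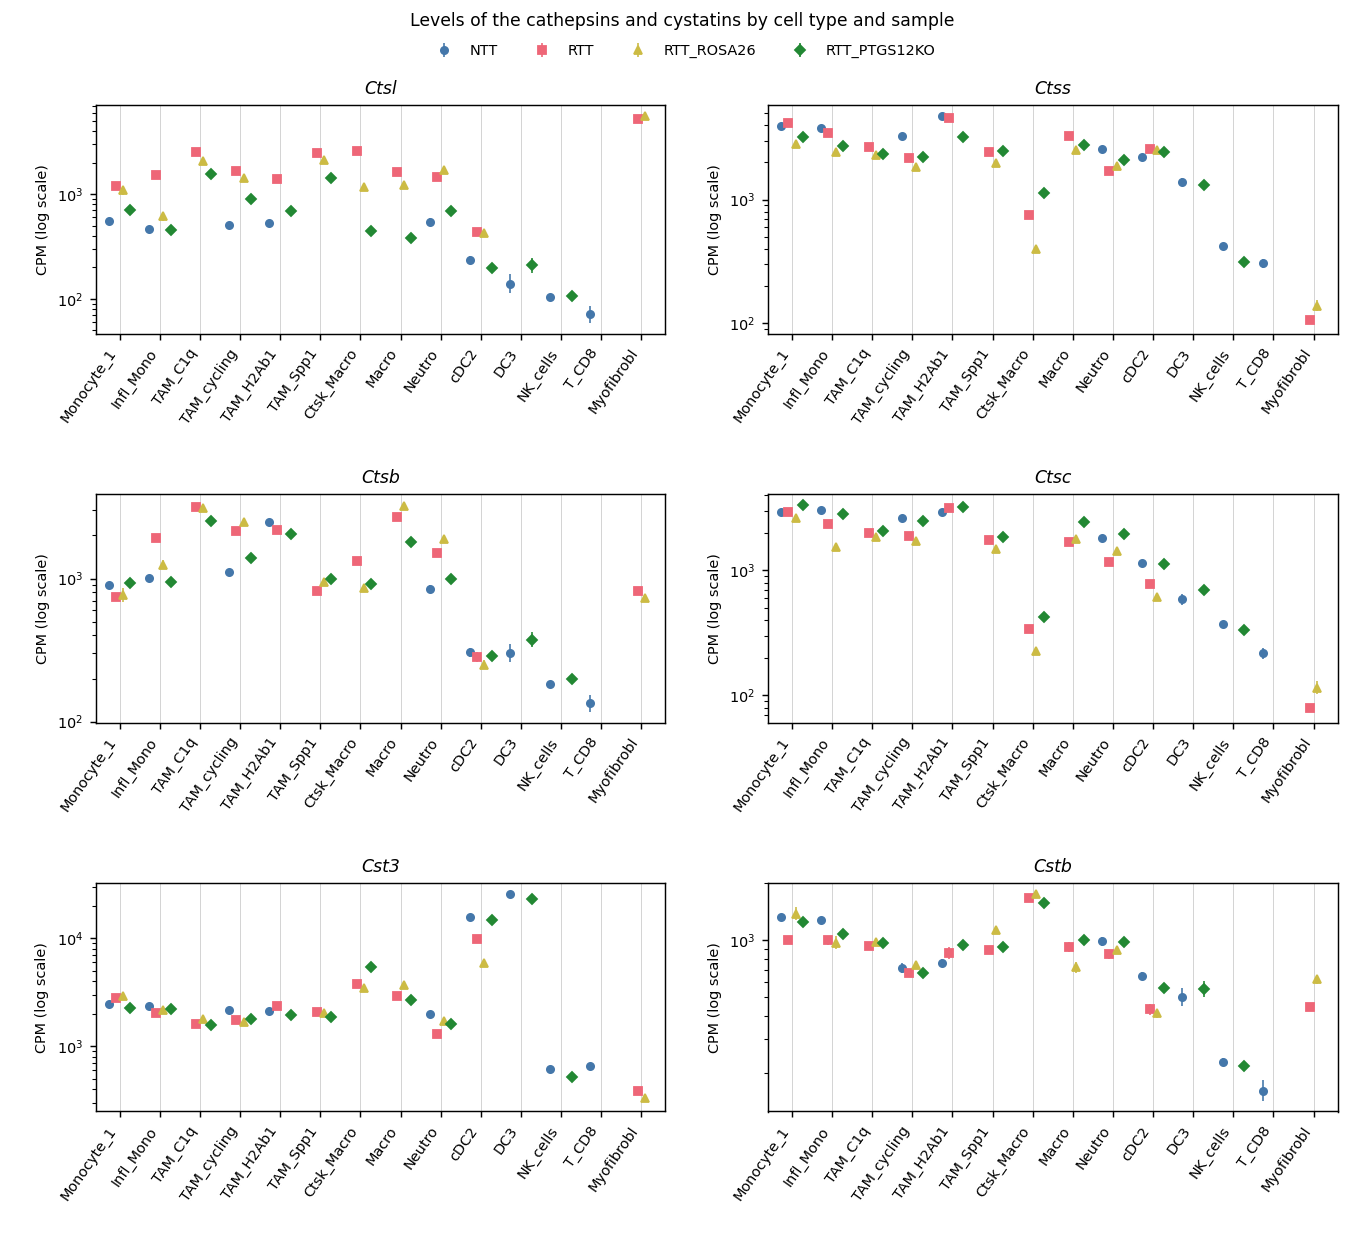
Ctsl, Ctss, Ctsb, Ctsc, Cst3 and Cstb in CPM on log axes by cell type and sample, with exact Poisson 95% intervals and groups under 50 cells left out. Ctsl peaks in Myofibrobl, Cst3 in DC3 and cDC2, and Ctss and Ctsc are low in Ctsk_Macro, NK_cells, T_CD8 and Myofibrobl.

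Over the 42 groups of sample and cell type, log2(CPM + 1) of Ctla2a correlated with that of Ctla2b at a Pearson r of 0.83 and with Ctsl at -0.04. Ctss and Ctsc reached 0.94, and Ctsl and Ctsb 0.69. Over the 16 groups of macrophage types alone, these values were 0.87, 0.52, 0.95 and 0.15, and Ctla2b and Ctsb reached 0.82, so the values for Ctsl depended on which cells were included. The groups share samples, loads and depth, so these values are descriptions. Among 7096 genes outside the list, the closest to Ctla2a were Sephs2 (0.84), Pitpnc1 (0.75) and Tecpr1 (0.74), and the closest to Ctla2b were Gpr34 (0.81), Mgat5 (0.80) and Slc9a9 (0.78). Ctsl was most like Tceal8 (0.91), Ecm1 and Fndc3b (both 0.88). Ctss was most like Pld4 (0.98), Unc93b1 (0.96) and Tifa (0.96), and Ctsc like Aif1 (0.96), Mpeg1 (0.96) and Fcgr1 (0.95). Ctsb was most like Rab1a, Mfsd1 and Mertk (all 0.92). Cst3 was most like Atox1 (0.91), Syngr2 (0.91) and Lactb (0.90), and Cstb like Atp6v0c (0.92), Mitf (0.89) and Tcirg1 (0.88).

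The rest of the pathway was read from lists of related genes in macrophages. Of the 11 cysteine cathepsins and legumain, 9 had at least 10 CPM. For RTT_PTGS12KO against RTT_ROSA26 none of the 9 passed 2-fold and their median log2 ratio was -0.25, against -0.09 over all genes. Ctsk, the collagen-degrading cathepsin of osteoclasts, was closest at 661 against 1237 CPM (-0.91), and Lgmn, the asparaginyl protease legumain, was at 1266 against 1638 CPM (-0.37). For NTT against RTT, 2 of 9 were at least 2-fold lower, Ctsl and Ctsk (274 against 936 CPM, -1.77), none was higher, and the median was 0.06, where 3.54% of all genes were lower and 5.35% higher. The sums held 5 Ctsk_Macro cells in NTT and 329 in RTT, and 401 in RTT_ROSA26 and 188 at the knockout. Within Ctsk_Macro, Ctsk was at 13932 CPM in RTT_ROSA26 and 14770 at the knockout, and the part of these cells in the Ctsk ratios was not tested. For RTT_ROSA26 against RTT none of 9 passed and the median was -0.10. Among cathepsins of other classes, 2 of 4 had that level, and Ctsd, the lysosomal aspartic protease, had 543 CPM in NTT against 1314 in RTT (-1.28) and 810.02 in RTT_PTGS12KO against 1572 in RTT_ROSA26 (-0.96), while Ctsa passed 2-fold in no comparison.

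Other inhibitors moved in both directions. Of 21 listed protease inhibitors in the table, 7 had at least 10 CPM for RTT_PTGS12KO against RTT_ROSA26, with 2 higher, 3 lower and a median of -0.19, where 2.37% of all genes were higher and 0.974% lower. Of the 3 lower genes, 2 were Ctla2a and Ctla2b, which were chosen with these ratios known. Serpina3g, a serpin that blocks cathepsin B-like proteases, had 105 CPM in NTT against 4.48 in RTT (4.55) and 31.8 in RTT_PTGS12KO against 2.54 in RTT_ROSA26 (3.64), opposite to Ctla2a in both. Serpinb9, a serpin best known for blocking granzyme B, gave 1.30 (14.98 against 6.104 CPM) and 1.88 (27.6 against 7.48 CPM). Cst7, which encodes cystatin F, an inhibitor of cathepsin C in immune cells, was the third that was lower in RTT_PTGS12KO, at 5.65 against 16.1 CPM (-1.51). For NTT against RTT, 3 of 8 inhibitors were higher, where 5.35% of all genes were, with Serpina3f at 28.5 against 1.18 CPM (4.60), 2 were lower, both Ctla2 genes, where 3.54% of all genes were, and the median was -0.02. For RTT_ROSA26 against RTT none of 5 passed and the median was 0.08.

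The genes of class II presentation, whose invariant chain is a substrate of cathepsins S and L, differed as well, in some cells and not in others. For RTT_PTGS12KO against RTT_ROSA26, 7 of 9 were at least 2-fold higher in macrophages, where 2.37% of all genes were, none was lower, and the median was 2.03. Cd74, the invariant chain, had 1385 CPM in NTT against 194 in RTT and 507 in RTT_PTGS12KO against 123 in RTT_ROSA26. H2-Aa, a class II chain, had 4245 against 512 and 1617 against 358 CPM in the same pairs. Ciita, the master activator of these genes, gave 3.09 (31.6 against 3.71 CPM). For NTT against RTT, 7 of 9 were higher, where 5.35% of all genes were, with a median of 2.84. In TAM_H2Ab1, where Ctla2a was also lower, their median was 0.30, against -0.01 over all genes. For RTT_ROSA26 against RTT none of 8 passed and the median was -0.50. In monocytes, 6 of 9 were higher for RTT_PTGS12KO against RTT_ROSA26 (median 1.24), where 1.83% of all genes were. None of 9 was higher for NTT against RTT (median 0.50), where 1.85% of all genes were, although both Ctla2 genes were lower there. For RTT_ROSA26 against RTT, 5 of 9 were lower (median -1.21), where 1.85% of all genes were, and none was higher, where 1.86% were.

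Of the 10 proteases that cathepsin C activates, only Gzma, the serine protease granzyme A of cytotoxic lymphocytes, had at least 10 CPM in macrophages, and only for NTT against RTT (23.9 against 4.45 CPM, 2.42). In NK_cells it was at 9145 CPM in NTT and 5108 in RTT_PTGS12KO. Neutrophils carried a cystatin of their own, Cstdc4, at 952 to 2348 CPM, while it reached at most 7.20 CPM in macrophages.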

How the data were processed

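Per the labels and the study's methods, CD45+ cells of each tumour were tagged with oligonucleotides, pooled, loaded 3 times and sequenced as 3′ libraries, which were processed with Cell Ranger (mm10) and Seurat 4.3.0 according to the submitters' processing notes. The UMI counts per gene and cell were deposited by the authors without normalization, with their cell type names, after filters on genes, mitochondrial and ribosomal shares. All 33368 cells were used. Tags remove doublets between samples, and no doublet caller was run here.

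UMIs were summed per sample and cell type or class, divided by their total and scaled to CPM. Poisson, Clopper-Pearson and conditional binomial intervals (95%) cover counting error only. With 1 sample per group no test was run, and a gene was counted as lower or higher past a 2-fold ratio at a mean of at least 10 CPM, with no pseudocount. A floor of 3 UMIs stood for a count of 0. Shares of cells with a UMI were compared after thinning to 3000 UMIs per cell, with shallower cells left out. The genes most like a member were those with the highest Pearson correlation. The members and lists were chosen with earlier results of these data known, so they support nothing independently. The text names the members, the 3 genes most like each of them, and from each list up to 4 genes with the ratios farthest from 0 per comparison in macrophages or monocytes, or with a level above every member in a cell type. The ratio script was tested on simulated data.

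Alternatives were TMM factors from edgeR, pseudocounts, stricter cell filters, equal weights of cells or types, removal of cells, marker-based assignment, single loads left out and a sum of both relatives. One, leaving out TAM_H2Ab1, was added after seeing the data. Promoters are RefSeq's (6 of 8 members matched), and positions are from GENCODE M21. Python 3.11.15, numpy 2.4.6, scipy 1.17.1, pandas 2.3.3, Biopython 1.88, matplotlib 3.10.9, R 4.3.3 and edgeR 4.0.16 were used.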

Additional observations from a re-analysis of the deposited data

Results flagged for a closer look

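RTT_ROSA26 and RTT, resistant tumours that both keep Ptgs1 and Ptgs2, differed in opposite directions in different cell types, although the difference between the types was not tested. The log2 ratio of Ctla2a was 1.14 in Myofibrobl and 1.10 in Neutro, and -0.60 in Ctsk_Macro and -1.16 in Infl_Mono. That of Ctla2b was 2.00 in Myofibrobl, and -1.13 in Ctsk_Macro, -0.95 in Infl_Mono and -0.84 in cDC2.

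Mast cells, left out of the comparisons because each sample had fewer than 50, held Ctla2a at 1686 CPM in NTT (1 cell), 29364 CPM in RTT (13 cells), 6178 CPM in RTT_ROSA26 (24 cells) and 6948 CPM in RTT_PTGS12KO (5 cells). A UMI of Ctla2a was found in all 43 of them, and Ctla2a made up 96.7% of the UMIs of both relatives.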

How the results depend on the processing

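No paired analysis was possible because the groups hold single samples. No log2 ratio of Ctla2a or Ctla2b in macrophages changed sign under any alternative run, and the causes of the changes in size were not tested. For NTT against RTT, Ctla2a (-2.83) was -3.46 as a mean over cells, -2.42 with CPM + 10, -5.19 without the 5% of cells with the most UMIs, -2.48 without cells with UMIs of mast, NK or endothelial genes, -4.53 with cells assigned by marker UMIs, -2.03 summed with Ctla2b, -1.96 without TAM_H2Ab1 (added after seeing the data) and -3.21 to -2.51 with 1 load left out. Ctla2b (-1.66) was -1.98 without the deepest 5% of cells, -2.62 by marker UMIs and -1.82 to -1.41 with 1 load left out. For RTT_PTGS12KO against RTT_ROSA26, Ctla2a (-3.15) was -3.05 with TMM factors, -3.06 as a mean over cells, -2.82 with types weighted equally, -2.69 with CPM + 10, -3.37 by marker UMIs, -1.99 summed with Ctla2b and -3.20 to -3.06 with 1 load left out. Ctla2b (-1.43) was -1.33, -1.31, -1.26, -1.33 and -1.65 under the first 5 of these. For RTT_ROSA26 against RTT, Ctla2a (0.20) was 0.11 with TMM factors, 0.059 as a mean over cells, 0.15 without the deepest 5% of cells, 0.25 by marker UMIs, 0.018 summed with Ctla2b and 0.16 to 0.25 with 1 load left out, and Ctla2b (-0.12) was -0.22, -0.21, -0.15 and -0.088 under the first 4 and -0.16 with types weighted equally. Of 72 values of the other 6 members under 4 alternatives, 59 kept the sign. In monocytes in place of macrophages, Ctss for NTT against RTT went from 0.69 to -0.03, Cstb from -0.20 to 0.39 and Cst3 from 0.17 to -0.09, and Cstb for RTT_PTGS12KO against RTT_ROSA26 from -0.19 to 0.12. The count of members past 2-fold was 3, 2 and 0 in the 3 comparisons, and 4, 3 and 0 past 1.5-fold in either direction, where 19.8%, 8.28% and 6.39% of all genes were. Depth limits NTT macrophages, with 308 cells, and monocytes of RTT_ROSA26, with 144.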
